A study of Mus musculus with 30 samples.

Results

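Fos, Jun, Junb, Jund, Atf3, Ier2, Ier3 and Myc are immediate early genes, and their transcripts were followed in mouse liver after an injection of insulin. They were taken from the deposited gene table by symbol, 8 of 29117 genes, and each symbol occurred once. Mice of the inbred strain C57BL/6J, aged 10 weeks, were fasted for 12 to 16 h before an intraperitoneal injection of human insulin at 0.7 U/kg or of phosphate-buffered saline (PBS), the vehicle. Poly(A) RNA of the left liver lobe was sequenced in 30 libraries, spread over 5 sampling points within 4 h. Each treatment had 3 libraries at a point, which the series design calls biological replicates. The labels number the points without giving minutes, so the numbers are used as names and no point is taken as a baseline. The fast was shared by both groups, and no fed or uninjected mice were analysed here.

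Immediate early genes are transcribed within minutes of a stimulus without new protein synthesis, through factors already present in the cell, and their short-lived transcripts usually fade again. Fos and Jun proteins pair through a leucine zipper to form activator protein 1 (AP-1), which binds DNA sites close to those of the cAMP-responsive factor CREB, and Atf3 belongs to the same basic leucine zipper class. In liver, Fos, Jun and Myc are known for their induction after partial hepatectomy, Atf3 for its induction by stress, and Myc for driving ribosome and nucleotide synthesis.

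On the mouse genome build GRCm38, with GENCODE M21 annotation, Fos lies on chromosome 12 (85473890 to 85477273), Jun on chromosome 4 (95049034 to 95052222) and Atf3 on chromosome 1 (191170296 to 191218039). Junb, Jund and Ier2 share chromosome 8, at 84974484 to 84978718, 70698949 to 70700616 and 84661331 to 84662852. Ier3 is on chromosome 17 (35821684 to 35822923) and Myc on chromosome 15 (61985391 to 61990374). All 8 are protein-coding.

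The promoters of Fos, Jun, Atf3 and Junb are shown because these 4 genes had the widest ranges among the AP-1 and related members in the insulin arm. AP-1 and CREB motifs can be looked for in the bases just before each start. Each line gives the 150 bases before the gene start in RefSeq on GRCm38.p6, 5′ to 3′ in the direction of the gene, and capitals mark a match to a CRE core or to the related site named below. The stretches are chr12:85473740-85473889 (plus strand) for Fos, chr4:95052223-95052372 (minus strand) for Jun, chr1:191183334-191183483 (minus strand) for Atf3 and chr8:84978749-84978898 (minus strand) for Junb.
Fos: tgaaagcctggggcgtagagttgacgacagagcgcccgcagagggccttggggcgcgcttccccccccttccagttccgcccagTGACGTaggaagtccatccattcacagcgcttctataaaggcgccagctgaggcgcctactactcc
Jun: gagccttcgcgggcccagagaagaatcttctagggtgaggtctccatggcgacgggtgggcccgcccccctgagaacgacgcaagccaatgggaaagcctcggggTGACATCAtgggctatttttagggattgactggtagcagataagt
Atf3: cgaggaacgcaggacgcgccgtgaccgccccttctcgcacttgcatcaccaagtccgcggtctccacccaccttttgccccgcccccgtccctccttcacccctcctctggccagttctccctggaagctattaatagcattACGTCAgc
Junb: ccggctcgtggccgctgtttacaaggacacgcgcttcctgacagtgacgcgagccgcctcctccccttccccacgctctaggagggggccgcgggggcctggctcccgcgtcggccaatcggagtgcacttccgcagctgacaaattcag
The motifs were searched on both strands of the 250 bases before the start, in 32851 RefSeq promoters of that length. Fos held the CRE core TGACGT, the inner part of a cAMP response element, 66 to 61 bases before its start, and a TATAAA box 33 to 28 bases before it. Atf3 held that core on the opposite strand, read as ACGTCA, 8 to 3 bases before the RefSeq start, which lies 7 bases from a GENCODE transcript start inside the longer gene body. Jun held TGACATCA, the variant known from its promoter, 45 to 38 bases before its start. TGACGT was found in 6.47% of all promoters and TGACATCA in 2.93%. In Junb, whose RefSeq start lies 30 bases upstream of the GENCODE start, a CCAAT box was found 36 to 32 bases before the start, a motif held by 33.8% of promoters. None of the 4 windows held the full CRE TGACGTCA (1.55% of promoters), which contains the core, the AP-1 site TGANTCA (6.75%) or a CArG box (1.47%), the site of serum response factor. Bases farther than 250 before the start were not searched, so sites there would have been missed. RefSeq entries were found for 6 of the 8 genes, without Ier2 and Myc.

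Levels are FPKM, fragment counts corrected for gene length and sequencing depth, and differences are on the log2(FPKM + 1) scale, which understates the change of genes near or below 1 FPKM. A gene was tested where it reached 1 FPKM in at least 3 libraries, which 13589 genes did, and a difference was called at an adjusted p below 0.05 from limma, a linear model fitted across all genes. All 8 members passed that filter, but Ier3 by the minimum of 3 libraries, Atf3 by 8 and Fos by 9. Those of Atf3 were all insulin libraries and those of Ier3 all lay at point 4. For both genes passing thus depended on the groups where they were high. Fos also reached 1 FPKM in PBS libraries, with 1.26 and 1.17 FPKM at point 2 and 1.91 FPKM at point 4. Over the 30 libraries the mean level per length was highest for Jund (17.9 FPKM), followed by Junb (10.6), Ier2 (9.13), Jun (5.16), Atf3 (2.44), Myc (2.27), Fos (1.56) and Ier3 (0.535). The depth of the libraries is unknown, because the table holds no counts. Hepatocyte markers summed to between 34629 and 49183 FPKM in every library, none of the 6 lymphocyte markers reached the filter, and their sum was at most 1.98 FPKM. Insulin libraries were sequenced on lanes 1 and 2 and PBS libraries on lanes 3, 4 and 5, so an effect of lane and one of treatment cannot be told apart at any point. Insulin replicate 2 was the only insulin library on lane 1 at points 1 to 4. Over all genes tested, the median difference between insulin and PBS for points 1 to 5 was -0.06, -0.12, -0.14, -0.14 and -0.17.

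**Figure D1:**
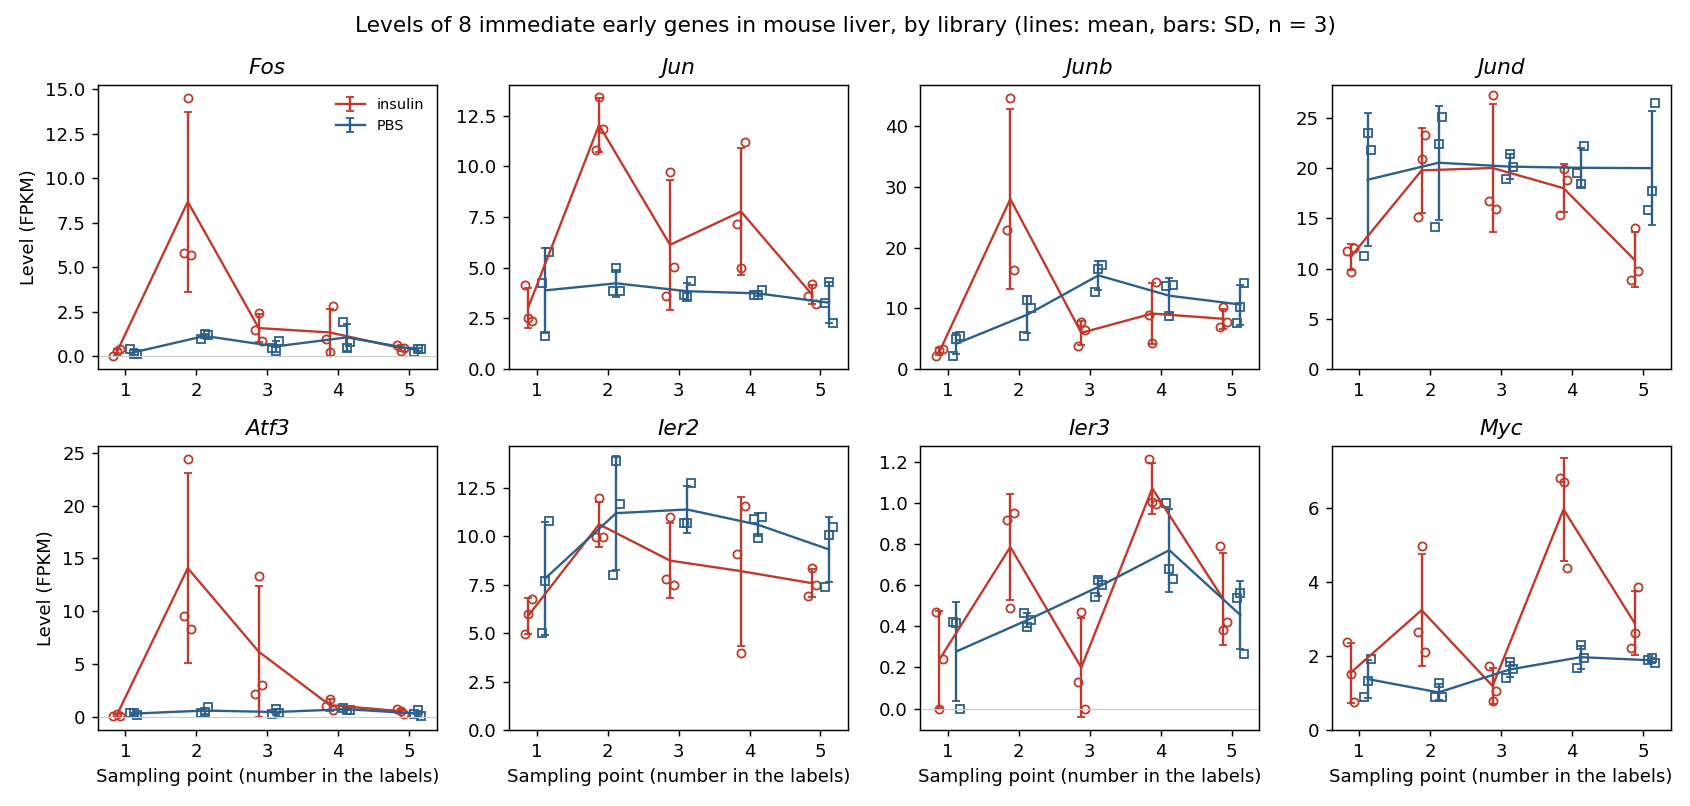
Level of each gene in FPKM (y axis, a separate scale per gene) at the 5 numbered sampling points (x axis). Open symbols are libraries, red circles for insulin and blue squares for PBS, and lines join group means with bars of 1 SD (n = 3); at point 2 the insulin libraries of Fos (lowest 5.69 FPKM), Jun (10.8), Junb (16.4) and Atf3 (8.28) all lie above the PBS libraries, whereas Jund and Ier2 overlap.

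At point 2, 5 of the 8 genes were higher in insulin than in PBS and none was lower: Atf3, Fos, Junb, Jun and Myc. Of all genes tested, 0.618% were called higher at that point and 0.736% lower, and 4.86% had every insulin library above every PBS library. The median difference of the 8 genes was 1.17, against -0.12 for all genes. Jund, Ier2 and Ier3 did not pass the test. At point 1 no member was called (limma, adjusted p from 0.561 for Jund to 0.999 for Fos), where 0.00736% of genes were.

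Fos encodes the partner that Jun proteins need for the most stable AP-1 dimer. At point 2 it stood at 5.81, 14.5 and 5.69 FPKM in insulin replicates 1 to 3 and at 0.992, 1.26 and 1.17 FPKM in PBS replicates 1 to 3. All insulin libraries lay above all PBS libraries, and insulin replicate 2 was the highest. The means were 8.67 ± 5.05 and 1.14 ± 0.135 FPKM (SD, n = 3), a ratio of 7.60 and a difference of 2.06 ± 0.33 (SE, limma, adjusted p = 0.000653). At point 1 Fos was low in both groups, with no value in insulin replicate 1, set here to 0, then 0.312 and 0.381 FPKM, against 0.426, 0.104 and 0.136 FPKM in PBS. At point 3 the insulin libraries held 1.47, 2.43 and 0.849 FPKM and the PBS libraries 0.456, 0.323 and 0.879, which overlapped. That difference of 0.70 ± 0.33 did not pass the test (limma, adjusted p = 0.162). At points 4 and 5 the groups overlapped again, with differences of 0.09 and 0.10. Fitted on the 6 libraries of point 2 alone, with 4 residual degrees of freedom, the Fos difference had an adjusted p of 0.0516 in limma.

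Atf3, a stress-induced member of the ATF family that can repress as a homodimer, showed the widest range. Its levels at point 2 were 9.53, 24.4 and 8.28 FPKM in insulin and 0.358, 0.497 and 0.914 FPKM in PBS. The lowest insulin library stood far above the highest PBS library. The means were 14.1 ± 8.99 and 0.590 ± 0.289 FPKM, a ratio of 23.9 and a difference of 3.11 ± 0.38 (SE, limma, adjusted p = 2.68e-05). Atf3 was also the only member called higher in insulin at point 3, as were 2.19% of all genes. There it stood at 2.17, 13.3 and 3.00 FPKM in insulin and at 0.269, 0.743 and 0.345 FPKM in PBS, a difference of 1.98 ± 0.38 (limma, adjusted p = 0.00236). Insulin replicate 2, on lane 1, was the highest at both points, and without it the call held at either point. The call at point 3 ended in a fit of that point's 6 libraries alone (limma, adjusted p = 0.0662). By point 4 the insulin libraries had 1.01, 1.72 and 0.602 FPKM and the PBS libraries 0.817, 0.677 and 0.665, which overlapped.

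The Jun family encodes the partners of Fos that can also pair with each other, and its 3 members differed in their values. Jun, the founding member, stood at 10.8, 13.4 and 11.9 FPKM in insulin at point 2 and at 3.84, 5.00 and 3.86 FPKM in PBS, so the groups did not overlap. The means of 12.0 ± 1.31 and 4.23 ± 0.665 FPKM gave a ratio of 2.84 and a difference of 1.32 ± 0.29 (limma, adjusted p = 0.0189). Leaving out insulin replicate 2, insulin replicate 3 or PBS replicate 3 ended this call (adjusted p = 0.104, 0.0502 and 0.0997). The insulin libraries of point 3 spread from 3.61 to 9.74 FPKM around PBS libraries between 3.57 and 4.34. At point 4 insulin held 7.15, 4.99 and 11.2 FPKM and PBS 3.64, 3.67 and 3.90, with no overlap, as was the case for 8.01% of all genes in that direction. That difference of 0.83 ± 0.29 missed the threshold (limma, adjusted p = 0.0619) and passed it after median-ratio scaling or quantile normalization (adjusted p = 0.0330 and 0.0293).

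Junb, which forms weaker activating dimers than Jun, was high in insulin at point 2 and low in insulin at point 3. At point 2 it stood at 23.0, 44.6 and 16.4 FPKM in insulin and at 5.48, 11.3 and 10.1 FPKM in PBS, without overlap. The difference was 1.47 ± 0.36, with a ratio of means of 3.12 (limma, adjusted p = 0.0372). In the libraries of point 3 the order turned: insulin held 3.84, 7.72 and 6.38 FPKM and PBS 12.7, 16.5 and 17.1 FPKM, again without overlap, as 27.8% of all genes had in that direction. Junb was lower in insulin by 1.27 there (SE 0.36, limma, adjusted p = 0.0303), beside 7.26% of all genes called lower at that point. With a pseudocount of 0.1 the difference at point 2 had an adjusted p of 0.0532 in limma. The difference at point 3 was -1.11 after median-ratio scaling and -1.12 after quantile normalization. The higher level at point 2 lost its call when insulin replicates 1 and 2 were each left out (adjusted p = 0.0806 and 0.228), as it did for each of PBS replicates 1, 2 and 3 (0.0871, 0.0599 and 0.0927). The lower level at point 3 lost its call for insulin replicates 1 and 3 (0.130 and 0.0553) and for PBS replicates 1, 2 and 3 (0.0507, 0.0865 and 0.0967).

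Jund, the member of the family that most cells hold without a stimulus, had the highest mean of the 8 genes over the 30 libraries, though not in insulin at point 2, and overlapped between groups at points 1 to 4. At point 1 its means were 11.2 FPKM in insulin and 18.9 FPKM in PBS, a difference of -0.65 ± 0.25 that did not pass (limma, adjusted p = 0.561). At point 2 it stood at 15.1, 21.0 and 23.3 FPKM in insulin and at 14.2, 22.4 and 25.1 FPKM in PBS, a difference of -0.04 ± 0.25 (limma, adjusted p = 0.961). At point 5 insulin held 8.91, 14.0 and 9.72 FPKM and PBS 15.8, 17.7 and 26.5 FPKM, with every insulin library below every PBS library, as for 29.0% of all genes. Jund was lower in insulin by 0.81 there (SE 0.25, limma, adjusted p = 0.0255), beside 16.1% of all genes called lower. After median-ratio scaling, which moved the median of all genes at that point from -0.17 to -0.01, the Jund difference was -0.61 and no longer passed (adjusted p = 0.0602), while after quantile normalization it was -0.65 and passed (adjusted p = 0.0461). Dropping insulin replicate 1, insulin replicate 3 or PBS replicate 3 also ended the call (adjusted p = 0.119, 0.0765 and 0.145). The difference at point 5 was not called apart from that at point 1 (-0.16 ± 0.35, limma, adjusted p = 0.880). The insulin mean was 10.9 FPKM at point 5, close to that of point 1. At point 5 the scavenger receptor gene Cd68 of Kupffer cells and the endothelial genes Stab2, Oit3 and Kdr were lower too, by -0.78, -0.54, -0.43 and -0.53, and their part in the Jund value was not tested. In bulk tissue fewer cells of a type and less RNA per cell cannot be told apart.

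Myc, a transcription factor of growth and ribosome production that acts outside AP-1, was higher in insulin at points 2 and 4 but not at point 3. At point 2 it stood at 2.65, 4.96 and 2.11 FPKM in insulin and at 0.904, 1.27 and 0.886 FPKM in PBS, without overlap, a difference of 1.02 ± 0.24 (limma, adjusted p = 0.0260). That call was lost when insulin replicate 2 was left out (adjusted p = 0.207), and likewise for PBS replicates 2 and 3 (0.0563 and 0.129). At point 3 the insulin libraries had 1.75, 0.783 and 1.05 FPKM and the PBS libraries 1.42, 1.83 and 1.66, which overlapped. At point 4 Myc reached its highest levels, 6.81, 6.70 and 4.37 FPKM in insulin against 1.68, 2.29 and 1.95 FPKM in PBS. The lowest insulin library had more than the highest PBS library, the ratio of means was 3.02, and the difference was 1.21 ± 0.24 (limma, adjusted p = 0.00236). Myc was the only member called at point 4, where 2.82% of all genes were called higher and 10.4% lower, and its call held in each fit that left out 1 library of that point. At point 5 the insulin libraries, at 2.21, 2.63 and 3.85 FPKM, again lay above the PBS libraries, at 1.89, 1.96 and 1.81, as 6.42% of all genes did, but the difference of 0.41 ± 0.24 did not pass (limma, adjusted p = 0.223).

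Ier2, a nuclear protein gene that belongs to the classical immediate early set, differed little between treatments. At point 2 it stood at 9.94, 11.9 and 9.95 FPKM in insulin and at 8.02, 13.9 and 11.7 FPKM in PBS, and the insulin range fell inside the PBS range. The difference was -0.04 ± 0.25 (limma, adjusted p = 0.951), and at the other points it was between -0.43 and -0.26. Ier3, which encodes a short-lived protein linked to cell survival, had the lowest mean of the 8 genes over the 30 libraries and reached 1 FPKM in 3 libraries. At point 2 it had 0.919, 0.489 and 0.951 FPKM in insulin and 0.463, 0.399 and 0.430 FPKM in PBS. These did not overlap, as was the case for 4.86% of all genes in that direction. The order was the opposite at point 3, with 0.129 and 0.468 FPKM and no value in 1 insulin library against 0.545, 0.627 and 0.603 FPKM in PBS. The missing value was set to 0, and 27.8% of all genes had every insulin library below every PBS library there. All these Ier3 levels lay below 1 FPKM. Neither the difference at point 2 (0.31 ± 0.17, limma, adjusted p = 0.347) nor that at point 3 (-0.43 ± 0.17, adjusted p = 0.113) passed the test.

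**Figure D2:**
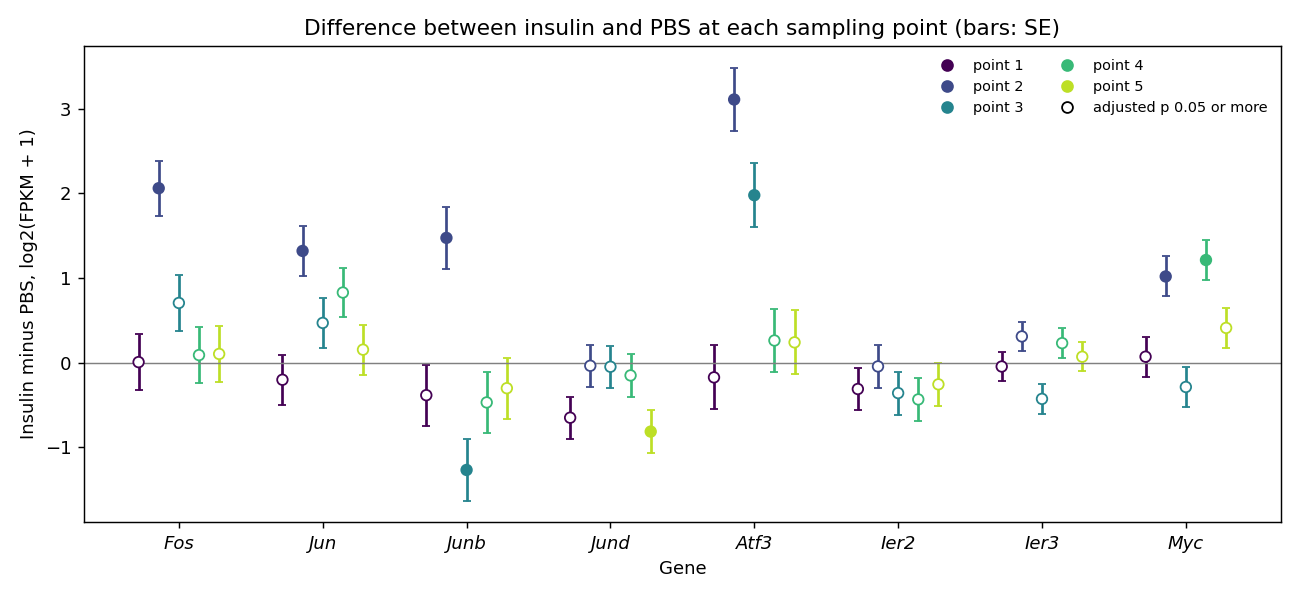
Insulin minus PBS on the log2(FPKM + 1) scale (y axis) for each gene (x axis) at the 5 points (colours), with bars of 1 SE from limma. Filled symbols passed an adjusted p of 0.05: Atf3 (3.11 at point 2 and 1.98 at point 3), Fos, Jun, Junb and Myc at point 2, Myc again at point 4, and, below 0, Junb at point 3 (-1.27) and Jund at point 5 (-0.81).

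Within the insulin arm, F tests among the 5 points called 7 of the 8 genes, all but Ier2 (limma, adjusted p = 0.261), and 13.3% of all genes. The Jund call (adjusted p = 0.0281) ended in 7 of 24 alternatives, among them no filter (0.0774) and fits without insulin replicate 2 at point 1, replicate 2 or 3 at point 2, or replicate 1 or 3 at point 5 (0.0507 to 0.0792), and without replicate 1 at all points (0.0968). The ratio of the highest to the lowest point mean was 89.9 for Atf3, 37.5 for Fos, 9.81 for Junb, 5.38 for Ier3, 4.99 for Myc, 3.98 for Jun, 1.84 for Jund and 1.80 for Ier2. Fos, Jun, Junb, Atf3 and Ier2 had their highest mean at point 2 and their lowest at point 1. Ier3 and Myc had their highest mean at point 4 and their lowest at point 3, and Jund its highest at point 3 and lowest at point 5. In the PBS arm the same test called Junb alone (limma, adjusted p = 0.0417), beside 3.27% of all genes. PBS means of Junb at points 1 to 5 were 4.21 ± 1.74, 8.98 ± 3.09, 15.4 ± 2.40, 12.1 ± 2.93 and 10.6 ± 3.29 FPKM (SD, n = 3). That call ended in 10 of the 15 fits that left out 1 PBS library, at adjusted p from 0.0514 (without replicate 3 at point 2) to 0.249 (without replicate 1 at point 1). PBS ranges of the other members ran from 1.09-fold for Jund to 5.14-fold for Fos, whose PBS mean was also highest at point 2.

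Between neighbouring points of the insulin arm, Fos, Jun, Junb and Atf3 rose from point 1 to point 2, by 2.87, 1.72, 2.80 and 3.56 (limma, adjusted p = 3.03e-06, 0.000601, 1.61e-05 and 1.08e-06), beside 2.06% of all genes. None of these 4 calls ended in any alternative in which the gene was tested. The hepatocyte marker Hnf4a, 1 of 6, also rose over that step, by 0.53 (adjusted p = 0.0139), and its part in these values was not tested. From point 2 to point 3, Fos fell by 1.83 and Junb by 1.98 (limma, adjusted p = 0.00399 and 0.00441), beside 0.324% of all genes. Jun and Atf3 had differences of -0.96 and -1.26 over that step, which did not pass (adjusted p = 0.179 and 0.161). Without insulin replicate 2 at point 3, where it was the highest library of Jun and Atf3, 4 members were called over that step. From point 3 to point 4, Myc rose by 1.67 (limma, adjusted p = 0.000584) and Ier3 by 0.81 (adjusted p = 0.0457), beside 0.169% of all genes. Leaving out a library ended the Ier3 call for insulin replicates 1 and 3 of point 3 (adjusted p = 0.122 and 0.227) and for replicates 1, 2 and 3 of point 4 (0.243, 0.0796 and 0.159). No member was called from point 4 to point 5, where 0.618% of genes were. In the PBS arm no member was called between neighbouring points, where 0.552%, 0.110%, 0.0147% and 0% of all genes were.

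Whether the difference between treatments itself depended on the point was asked with an F test over all 5 points, which called Atf3, Junb, Myc and Fos (limma, adjusted p = 0.00182, 0.0309, 0.0415 and 0.0433) and 1.77% of all genes. Jun, Ier3, Jund and Ier2 were not called (adjusted p = 0.225, 0.431, 0.573 and 0.974). Taken against point 1, the difference at point 2 was larger by 3.28 ± 0.53 for Atf3 and by 2.05 ± 0.46 for Fos (limma, adjusted p = 0.00309 and 0.0473), beside 0.287% of all genes called in that direction. The Atf3 call held in all 20 alternatives, whereas the Fos call ended in 15 of 20, at adjusted p up to 0.396 with a pseudocount of 0.1. The 4 comparisons with point 1 share the 6 libraries of that point. At point 3 the Atf3 value was 2.15 ± 0.53 and just missed the threshold (adjusted p = 0.0569), beside 0.736% of genes called in either direction, and at points 4 and 5 no member passed, beside 0.787% and 1.06%. With lane as a further term within each arm, an alternative added after the data were seen, the F test called 2 members.

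Ordered by mean over the 10 groups, neighbouring groups mostly overlapped. For Fos, the group of insulin at point 2 stood apart from the next, and for Atf3, insulin at point 3 stood above insulin at point 4. For Jund and Ier2, the insulin groups of point 4 and point 5, in that order, stood above insulin at point 1. Ier3 had 2 such gaps, below insulin at point 4 and below PBS at point 4. Both were narrow, with 0.995 above 0.951 FPKM and 0.632 above 0.627 FPKM. All 9 neighbouring pairs overlapped for Jun, Junb and Myc. The groups were ranked by these same values and no share of gaps over all genes was computed, so this order is a description.

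The genes whose levels were most like each member over the 30 libraries were ranked by Pearson's r of log2(FPKM + 1) among about 9660 genes, as a description, since libraries share treatments, points and lanes. Atf3 was most like Nr4a1 (r = 0.97), an orphan nuclear receptor gene induced early by many stimuli, then Rasgef1b (0.94) and Rel (0.92), an NF-kB subunit. Fos was most like Dusp1 (0.90), which encodes a phosphatase that inactivates MAP kinases, then Rasgef1b (0.87) and Fosl2 (0.87). Jun was most like Btg2 (0.85), Ppp1r15a (0.84) and Tob1 (0.84). Junb was most like Socs3 (0.84), a feedback inhibitor of cytokine signalling, Csrnp1 (0.82) and Trib1 (0.82). Jund was closest to Atoh8, Rhob and Mbd3 (0.84, 0.84 and 0.82), and Ier2 to Junb, Midn and Kdm6b (0.78, 0.78 and 0.75). The values for Myc, with Ccdc157, Pitpnc1 and Ccser2 (0.68, 0.68 and 0.64), and for Ier3, with Apbb3, Fgfr1op and Slpi (0.66, 0.64 and 0.63), were lower.

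Among AP-1 dimer partners and related leucine zipper factors, 9 of 13 listed genes could be tested. At point 2, 2 of them were called higher in insulin and none lower, beside 0.618% and 0.736% of all genes. The list median was 0.07 against -0.12 for all genes. Fosb, a close relative of Fos, stood at 1.95, 5.41 and 1.81 FPKM in insulin and at no more than 0.0233 FPKM in PBS (difference 1.90 ± 0.27, limma, adjusted p = 0.000159). Fosl2, the Fra-2 gene, stood at 8.77, 19.7 and 10.5 FPKM in insulin and at 2.38, 2.47 and 1.50 in PBS (2.10 ± 0.32, adjusted p = 0.000299). Fosb reached 1 FPKM in insulin libraries alone, so its entry among the genes tested depended on the group where it was high. As for Fos and Atf3, the insulin libraries lay above all PBS libraries and replicate 2 was the highest. At point 3 none was called higher, and Atf7 and Mafg were lower by 0.64 and 0.62, beside 2.19% of all genes called higher and 7.26% lower. At points 1, 4 and 5 none of the 9 was called.

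Of the other immediate early genes, 27 of 33 listed could be tested. None was called at point 1. Over points 2 to 5, the numbers called higher in insulin were 13, 7, 7 and 5 and the numbers called lower 3, 0, 2 and 2. Of all genes, 0.736%, 7.26%, 10.4% and 16.1% were called lower at points 2 to 5, and 0.618%, 2.19% and 2.82% higher at points 2 to 4. At point 5, 2194 of the 2596 genes called were lower. The list medians at points 2 to 5 were 0.69, 0.15, 0.24 and 0.09, against -0.12, -0.14, -0.14 and -0.17 for all genes. The 4 with the smallest adjusted p at point 2 were Nr4a1 (4.84 ± 0.38), Dusp1 (2.30 ± 0.26), Klf10 (-1.94 ± 0.24) and Sgk1 (1.73 ± 0.22), a kinase gene. At point 3 they were Nr4a3, Nr4a1, Gadd45g and Nr4a2, higher by 2.53, 2.71, 1.69 and 1.55. At point 4, where Myc was high and Fos and Atf3 were not, Gadd45g, Plk3, Dusp1 and Nr4a3 were higher by 2.23, 1.87, 1.09 and 1.26.

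**Figure D3:**
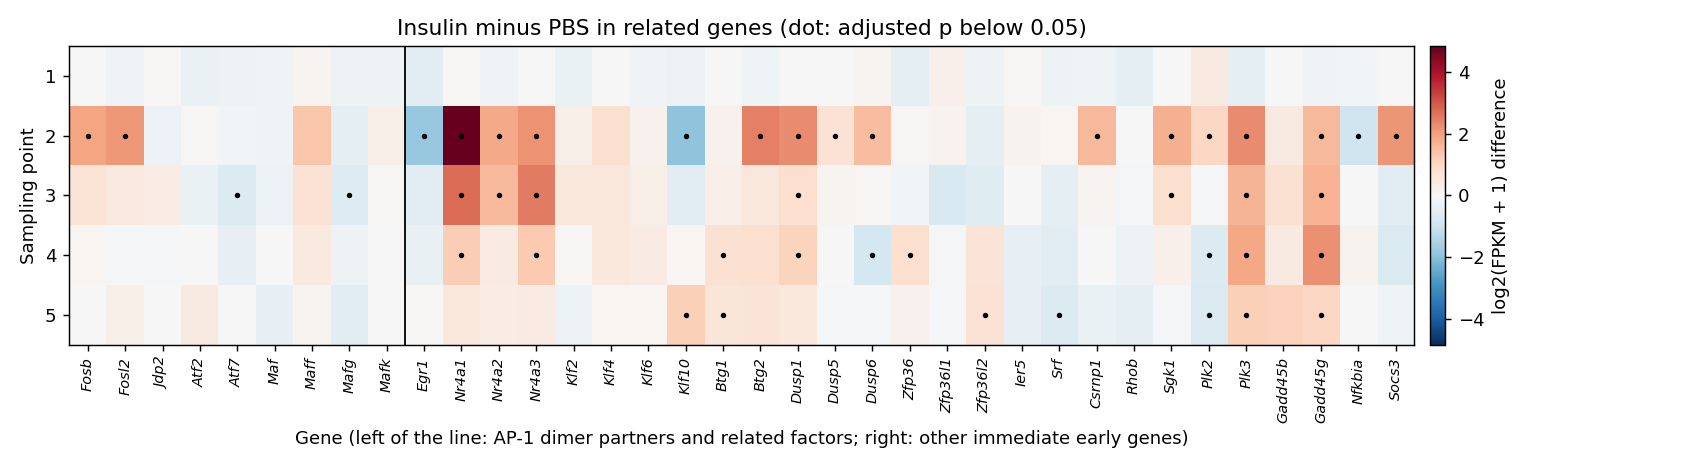
Insulin minus PBS on the log2(FPKM + 1) scale (colour, red higher and blue lower in insulin) for the tested AP-1 partners (left of the line) and other immediate early genes (right), by sampling point (y axis). Dots mark an adjusted p below 0.05; at point 2 there are 2 dots among the 9 AP-1 partners and 16 among the 27 other genes, of which 13 are higher.

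Genes upstream of Fos and Jun, the MAP kinases and the factors that bind their promoters, were all measured (16 of 16). At point 2 Crem alone was called, higher in insulin (1.16 ± 0.30, limma, adjusted p = 0.0494), and it was higher at points 3, 4 and 5 by 2.12, 1.72 and 1.48. Its insulin means at points 2 to 5 were 25.1, 45.1, 32.7 and 22.5 FPKM. Crem encodes a cAMP-responsive factor whose short isoform represses. The kinase gene Mapk3 was lower in insulin by 0.87, 0.51 and 0.95 at points 3 to 5 and Mapk14 by 0.48, 0.61 and 0.52. Map2k4, another kinase gene, was higher by 0.33 at points 3 and 5 (limma, adjusted p = 0.0399 and 0.0234). In all, 1, 2, 1 and 2 of the 16 were called higher at points 2 to 5 and 0, 3, 2 and 4 lower, beside 0.736%, 7.26%, 10.4% and 16.1% of all genes called lower. The shares of all genes called higher at points 2 to 4 were 0.618%, 2.19% and 2.82%. The list medians were between -0.02 and 0.06. Beside Myc, its partners and antagonists showed no call at point 2 among 10 tested of 12 listed. Mxd4, Mlxipl and Mycl were lower in insulin by 0.56, 0.69 and 0.83 at point 3. Mga was higher by 0.60 at point 4, where Mlxipl was lower by 0.63, and Mxd4 was lower by 0.48 at point 5. Among 14 target genes of Myc in ribosome and nucleotide synthesis, none was called at point 2. At point 4, where Myc was highest, 0 were called higher and 2 lower, Srm by 0.69 and Fbl by 0.48, beside 10.4% of all genes called lower. The list median there was 0.01 against -0.14 for all genes. At points 3 and 5 the counts were 1 higher (Gnl3, 0.58) and 1 lower (Srm, -0.66), and 0 higher and 1 lower (Srm, -0.66).

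Atf3 is also a gene of the integrated stress response, of which 10 of 10 other genes could be tested. At point 2 Atf4, the factor at its centre, was higher in insulin by 0.74 and Ppp1r15a by 0.83, while Trib3 was lower by 1.14 (limma, adjusted p = 0.0161, 0.0313 and 0.00336). At point 3 Atf4 was higher by 0.54 and Trib3 and Sesn2 were lower by 1.09 and 0.65. At point 4 Trib3 alone was called, lower by -0.96, and at points 1 and 5 none was. Of all genes, 0.618% and 2.19% were called higher at points 2 and 3, and 0.736%, 7.26% and 10.4% lower at points 2 to 4.

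Markers of liver cell types were set beside these values. At point 2, where 5 members were higher in insulin, no marker of hepatocytes, Kupffer cells, sinusoidal endothelium, stellate cells, cholangiocytes or neutrophils was called. At point 3, 1 of 6 endothelial markers was lower in insulin (Oit3, -0.48), beside 7.26% of all genes called lower. At point 4, where Myc was higher in insulin, 3 of 7 Kupffer cell markers were lower (Cd5l, Clec4f and Cd68). So were 1 of 6 endothelial markers (Clec4g) and 1 of 5 cholangiocyte markers (Sox9, means of 0.410 and 0.976 FPKM in insulin and PBS). Of all genes, 10.4% were called lower at that point. Summed Kupffer cell markers ranged over all points from 50.2 to 106 FPKM in insulin libraries and from 68.3 to 190 FPKM in PBS libraries, and summed endothelial markers from 37.5 to 56.9 and from 49.0 to 73.5 FPKM. The part of these cells in the levels of the 8 genes was not tested. Neutrophil markers, of which 2 of 5 reached the filter, summed to at most 6.30 FPKM in insulin and 8.03 FPKM in PBS libraries.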

How the data were processed

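Libraries were made with poly(A) selection and a directional kit, per the labels' protocols. HISAT2 2.1.0, SAMtools 1.9 and StringTie 2.0.3 and the build GRCm38 are named, per the submitters' processing notes; which annotation and strand setting were used is not stated there. The authors deposited FPKM per gene, so no count test was run. No cell was exactly 0, and the 32.2% of cells without a value were set to 0. Whole reads could not be recovered from the steps of low FPKM values, so depth is unknown. At the best-fitting of the depths tried, 40.5% to 49.1% of values were whole within 0.05 of a read. The 10% expected by chance holds for a fixed depth, and the chance level of the best fit was not computed.

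Groups came from the sample titles. A linear model of log2(FPKM + 1) was fitted in R 4.3.3 by limma 3.58.1, using an intensity trend, a mean for each of 10 groups, all 30 libraries and 20 residual degrees of freedom. Tests were two-sided, and p-values were adjusted by the Benjamini-Hochberg method over the 13589 genes at 1 FPKM or more in 3 libraries. The p-values set each difference against a spread between libraries. That spread was pooled over the 10 groups of 3 libraries and drawn toward the trend over all genes.

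The 8 genes, the 13 gene lists and the tests were chosen with earlier results of these data known. All 8 genes were described at every point, together with, for each list, the called genes of smallest adjusted p, at most 4, and the 3 genes most correlated with each member. A gene of the AP-1 partner list is not reported here and was left out of its counts. Further called list genes were named only to say which they were, after their values were seen. Promoters were RefSeq entries on GRCm38.p6, and gene positions came from GENCODE M21, which matched 29066 of the 29117 gene IDs.

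The alternatives included quantile normalization or median-ratio scaling, a mean of at least 5 FPKM or no filter in place of the filter above, a pseudocount of 0.1, the replicate number as a block, the series of libraries as a random effect, the 6 libraries of a point alone, and each library, or insulin replicate 1 at all points, left out. Lane within each arm as a term was added after the data were seen. On simulated data with the real spread and changes added to genes above a mean of 5 FPKM, made for the comparison at point 2 with 13589 genes, the fit recovered 89 of 100 genes changed by 1 and 98 of 100 changed by 2 on the log2 scale, with 14 false calls. Atf3, Myc, Fos and Ier3 had means below 5 FPKM, so this recovery does not cover them. No effect of lane was simulated.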

Additional observations from a re-analysis of the deposited data

Results flagged for a closer look

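An F test of the difference between insulin and PBS over the sampling points called 4 of the 8 genes, beside 1.77% of all genes. With lane within each arm as a further term, Fos and Myc were no longer called (limma, adjusted p = 0.0586 and 0.0565). For Atf3 the F test over the 5 points gave an adjusted p of 0.00182 in limma, and the difference at point 2 exceeded that at point 1 by 3.28 on the log2 scale. Its call held in all 38 alternatives that could be fitted, at adjusted p up to 0.0111. For Fos the F test gave an adjusted p of 0.0433, and the difference at point 2 exceeded that at point 1 by 2.05, a call that ended in 15 of 20 alternatives at adjusted p up to 0.396. The Fos F call ended in 28 of 38 alternatives, with adjusted p up to 0.337 with a pseudocount of 0.1, and up to 0.154 among fits without 1 library (insulin replicate 2 at point 2). For Junb, higher at point 2 and lower at point 3, the adjusted p was 0.0309. It ended in 9 of 39 alternatives, among them those without insulin replicate 1 or 2 at point 2 (0.0556 and 0.106), PBS replicate 1 or 3 at point 2 (0.105 and 0.0521), insulin replicate 1 at point 3 (0.0558), or PBS replicate 2 or 3 at point 3 (0.0567 and 0.0607). For Myc, higher at points 2 and 4, it was 0.0415, and the call ended in 23 of 38 alternatives, at adjusted p up to 0.114.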

How the results depend on the processing

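No member's called difference changed sign under any alternative. Counts of members called that moved by over 1.5 times, and some that moved by less, are given here, from 5, 2, 1 and 1 for insulin minus PBS at points 2, 3, 4 and 5. With no filter, where p-values were adjusted over 29117 genes, they were 2, 1, 1 and 0. With a mean of 5 FPKM, which left 6707 genes and 4 members to test, they were 2, 1, 0 and 1. In fits of a point's own 6 libraries they were 2, 1, 1 and 0. A pseudocount of 0.1 gave 4 at point 2. Median-ratio scaling gave 2 at point 4 and 0 at point 5, and quantile normalization gave 2 at point 4. Leaving out libraries gave 2 to 4, 1 to 2, 1 and 0 to 1. For the difference at point 2 against that at point 1 the count of 2 became 1 with a pseudocount of 0.1, with no filter and with lane as a term, 0 with a mean of 5 FPKM, and 1 to 2 without libraries. For point 3 against point 1 the count of 0 became 1 (Atf3) with a pseudocount of 0.1, either scaling, the random series or the lane term, and 0 to 1 without libraries.

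In the insulin arm the count of 4 from point 1 to 2 was 2 with a mean of 5 FPKM and 4 to 5 without libraries. From point 2 to 3 the count of 2 was 1 with a pseudocount of 0.1 or a mean of 5 FPKM and 0 to 4 without libraries, with 0 where insulin replicate 1 was left out at all points and 4 where replicate 2 was left out at point 3. From point 3 to 4 the count of 2 was 1 with a pseudocount of 0.1, no filter or either scaling, 0 with a mean of 5 FPKM, and 1 to 2 without libraries. The F test of the difference called 4, then 2 with a pseudocount of 0.1 or the lane term, 1 with no filter or a mean of 5 FPKM, and 1 to 4 without libraries. F tests within insulin called 7, then 6 with no filter, 3 with a mean of 5 FPKM and 5 to 7 without libraries. Within PBS the count of 1 was 0 with no filter and 0 to 1 without libraries. Apart from the smaller number of members tested, the cause of these moves was not tested. Shares of all genes called under each alternative are not given beside these counts. A move among the members thus cannot be told apart from one over all genes.

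No sign was seen that replicate numbers pair the libraries across arms. Same-numbered libraries at a point had a median correlation of deviations of 0.000748 (from -0.111 to 0.122 over 15 pairs), and 5 of 15 insulin libraries correlated best with their own number. With 3 libraries per group, these values cannot exclude a weak pairing. Within an arm, across points, the median was 0.0601 for the same number and -0.0500 for other numbers, and in PBS each number has its own lane. The replicate block moved the genes called at points 1 to 5 from 1, 184, 1284, 1799 and 2596 to 5, 450, 1957, 2344 and 3173. Among members it gave 1 call in place of 2 for point 2 against point 1, where Fos had an adjusted p of 0.0724, and 1 in place of 0 for point 3 against point 1. In the F test of the difference it gave 3 in place of 4, with Fos at an adjusted p of 0.0580. Depth is unknown, so no limit for low values such as those of Ier3 can be given.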

Other observations

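Egr1 and Klf10, immediate early transcription factor genes outside the AP-1 family, were lower in insulin than in PBS at point 2, where the PBS libraries had risen from point 1. Over that step in PBS, Egr1 rose by 2.72 and Klf10 by 1.39 (limma, adjusted p = 0.00397 and 0.00853). In insulin the means at points 1 and 2 were 0.620 and 3.22 FPKM for Egr1 and 1.97 and 1.39 FPKM for Klf10. Egr1 stood at 3.11, 3.14 and 3.42 FPKM in insulin and at 8.76, 15.2 and 20.9 FPKM in PBS, a difference of -1.84 ± 0.45 (SE, limma, adjusted p = 0.0338). Klf10 stood at 1.18, 1.49 and 1.50 FPKM in insulin and at 6.96, 8.69 and 9.04 FPKM in PBS (-1.94 ± 0.24, adjusted p = 3.86e-05). For both genes every insulin library lay below every PBS library. By point 5 Klf10 had 13.3, 16.6 and 12.3 FPKM in insulin and 3.05, 7.06 and 8.02 FPKM in PBS, and was higher by 1.17. Both genes were singled out after their values were seen.

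Crem, whose products bind the same element as CREB, was higher in insulin at points 2 to 5. At point 4 it had 26.1, 52.5 and 19.6 FPKM in insulin and 7.08, 10.3 and 8.25 FPKM in PBS, against 0.969, 0.241 and 2.80 FPKM and 1.91, 0.456 and 0.820 FPKM for Fos. Insulin replicate 2, the lane 1 library, was the highest for Crem at points 2, 3 and 4, and for all members but Myc at point 3. At point 4 it was the lowest of the 3 insulin libraries for Fos, Jun, Junb and Ier2, the highest for Atf3 and Jund, and between the others for Ier3 and Myc. A link between Crem and these genes was not tested.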
